A study of Homo sapiens with 12 samples.

Results

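Vacuolar proton pump (V-ATPase) subunits were examined through 10 genes, ATP6V0A1, ATP6V0C, ATP6V0D1, ATP6V0D2, ATP6V1A, ATP6V1B2, ATP6V1C1, ATP6V1D, ATP6V1H and ATP6AP1, out of 20030 rows in the expression table. All 10 genes were found by symbol. The genes were chosen on their FPKM values in the JOA-treated and control libraries of THP-1, where the treated values of the detected members lay above those of the controls, so the values of that comparison are given as a description and serve as no test. Messenger RNA was sequenced in 12 libraries of MOLM-13 and THP-1, human acute myeloid leukemia lines of monocytic type that both carry a rearranged MLL gene. MOLM-13 also carries the FLT3 internal tandem duplication, whereas THP-1 has wild-type FLT3. Each line gave 3 control libraries, from cells given the solvent DMSO, and 3 libraries of cells treated with JOA (Jiyuan oridonin A), a diterpenoid of the ent-kaurene class related to oridonin. MOLM-13 received 0.5 µM JOA and THP-1 received 2 µM JOA, and the labels give 48 h for all libraries, where a figure legend of the study gives a longer time. Treated cells of the lines differ in dose, so cell line and dose cannot be told apart. Each line is a single culture model. The study describes its figures from these data as representative of repeated independent experiments, but neither it nor the labels say how the 3 libraries of a group relate to those experiments, so p-values measure only the spread between these libraries.

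The V-ATPase is a rotary enzyme that uses ATP to pump protons into lysosomes, endosomes and secretory granules. Its peripheral V1 part binds and hydrolyses ATP in a ring of A and B subunits, and its membrane V0 part carries protons through a ring of c subunits pressed against subunit a. The central stalk (D, F and d) couples the parts, the peripheral stalks (C, E, G and H) hold V1 in place, and accessory proteins such as ATP6AP1 serve assembly. In myeloid cells the pump acidifies lysosomes and phagosomes, and at the lysosome it is part of the machinery through which amino acids reach the kinase mTORC1. Many lysosomal genes, pump subunits included, carry E-box motifs bound by the transcription factors TFEB, TFE3 and MITF.

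Promoter sequences from RefSeq (GRCh38.p14, from 250 bases before to 50 bases after the annotated start) matched 5 of the 10 members, namely ATP6V0A1, ATP6V0C, ATP6V0D1, ATP6V1D and ATP6AP1. The promoters of ATP6V0A1 (chr17:42458628-42458927, plus strand) and ATP6V0D1 (chr16:67481108-67481407, minus strand) are shown because these members had the largest fold changes with JOA in THP-1, and capitals mark the E-box core CACGTG, searched on both strands.
ATP6V0A1: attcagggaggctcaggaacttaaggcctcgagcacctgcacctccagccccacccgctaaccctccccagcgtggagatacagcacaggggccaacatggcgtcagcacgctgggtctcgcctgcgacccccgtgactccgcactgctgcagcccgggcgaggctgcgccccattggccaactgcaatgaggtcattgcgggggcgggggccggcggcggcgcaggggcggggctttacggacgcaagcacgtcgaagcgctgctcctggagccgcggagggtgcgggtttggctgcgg
ATP6V0D1: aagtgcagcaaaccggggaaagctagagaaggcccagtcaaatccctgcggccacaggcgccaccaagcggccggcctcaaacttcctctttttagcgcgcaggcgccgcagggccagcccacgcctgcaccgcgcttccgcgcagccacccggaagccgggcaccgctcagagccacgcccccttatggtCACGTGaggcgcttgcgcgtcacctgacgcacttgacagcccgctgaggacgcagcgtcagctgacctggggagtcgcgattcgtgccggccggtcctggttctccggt
CACGTG was found in ATP6V0D1, starting 59 bases before the start, and in none of the other 4 member promoters. It was present in 2030 of 27305 promoters of the same length (7.43%). Positions of the motif are counted from the RefSeq start; in the GENCODE v29 annotation the first base of ATP6V0D1 lies further upstream, so the motif falls inside that gene model, as do those of ATP6V0B, one of the other subunit genes described next.

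Among the other pump subunit genes, 3 of 13 with a promoter held the same core. The 30 bases around each occurrence are shown beside that of ATP6V0D1 for comparison, again with CACGTG in capitals.
ATP6V0D1: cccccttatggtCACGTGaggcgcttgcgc
ATP6V0B, upstream copy: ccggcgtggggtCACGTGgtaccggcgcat
ATP6V0B, downstream copy: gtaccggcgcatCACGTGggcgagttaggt
ATP6V1G1: acgctgtgcggtCACGTGacaacgggggcg
ATP6V0E2: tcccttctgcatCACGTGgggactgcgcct
The windows lie at chr16:67481199-67481228 (ATP6V0D1, minus strand), chr1:43974891-43974920 and chr1:43974909-43974938 (ATP6V0B, plus strand), chr9:114587699-114587728 (ATP6V1G1, plus strand) and chr7:149872884-149872913 (ATP6V0E2, plus strand). In ATP6V0D1, ATP6V0B and ATP6V1G1 a copy of the core started 57 to 59 bases before the start and was preceded by GT, giving GTCACGTG, a form held by 690 of 27305 promoters (2.53%). These matches are a description of letters and not of binding. The log2 fold changes of the 4 genes with JOA in THP-1, on the log2(FPKM + 0.1) scale, were 0.34 for ATP6V0D1, 0.22 for ATP6V0E2, 0.09 for ATP6V0B and -0.06 for ATP6V1G1.

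Libraries of the same line correlated at 0.990 to 0.995 in MOLM-13 and 0.987 to 0.993 in THP-1, and their depth relative to each other, read from the steps of low values, ranged from 0.89 to 1.07. All 10 monocytic markers listed for the lines (CD33, LYZ, SPI1, PTPRC, CSF1R, MPO, CD4, LILRB4, CEBPA and MEF2C) averaged at least 1 FPKM in every group. Their summed level ranged from 1139 to 1729 FPKM in THP-1 controls and from 1140 to 1460 FPKM with JOA, and from 2268 to 3514 FPKM in MOLM-13 controls and from 2798 to 3747 FPKM with JOA. LYZ alone made up most of these sums, averaging 1032 FPKM in THP-1 controls and 2473 FPKM in MOLM-13 controls. The ranges therefore mainly describe that gene. Of 10 markers of other lineages, at most 1 averaged 1 FPKM or more in any group. That marker was the T-cell gene CD3D, at 2.83 FPKM on average in MOLM-13 controls and 2.13 FPKM with JOA. It was listed at 0 in every THP-1 library. As these are bulk libraries, fewer cells with a transcript and less of it per cell cannot be told apart.

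The levels of the members spanned a wide range within each line. ATP6V0C, the proteolipid that forms most of the proton-carrying ring, was the most abundant member per length in all 4 groups, with 114 ± 15.5 FPKM in MOLM-13 controls and 156 ± 6.77 FPKM in THP-1 controls (mean ± SD, n = 3). The annotation lists 4 copies of ATP6V0C elsewhere in the genome, and reads shared with them may have been split, so its level is uncertain. ATP6V1B2, the B subunit of the ATP-hydrolysing head, followed in all 4 groups, and in MOLM-13 controls its libraries overlapped those of ATP6V0C. ATP6AP1 and ATP6V0D1 came next in all 4 groups, between 24.9 and 44.9 FPKM on average, and overlapped each other in MOLM-13 with JOA. Below them the order differed between lines. In MOLM-13 controls ATP6V1C1 (28.4 ± 0.885 FPKM) and ATP6V1H (23.4 ± 1.70 FPKM) stood above ATP6V1D (15.7 ± 0.0897 FPKM) and ATP6V1A (14.7 ± 0.735 FPKM), whereas in THP-1 controls ATP6V1A (19.6 ± 0.306 FPKM) and ATP6V1D (17.2 ± 0.869 FPKM) stood above ATP6V1C1 (13.2 ± 0.192 FPKM) and ATP6V1H came ninth (5.15 ± 0.719 FPKM). Apart from the pairs named, ATP6V0D1 with ATP6V1C1 in MOLM-13 controls, and ATP6V1A with ATP6V1D in MOLM-13 with JOA, neighbours in the order did not overlap.

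ATP6V0D2, the d subunit paralog known from osteoclasts, kidney and some macrophages, was close to absent. It was listed at 0 in 8 of 12 libraries, and the others held 0.0215 FPKM (MOLM-13 control replicate 2), 0.0426 FPKM (MOLM-13 JOA replicate 3), 0.0207 FPKM (THP-1 control replicate 3) and 0.0741 FPKM (THP-1 JOA replicate 3). It stayed under the filter of 0.1 FPKM on average in every comparison and was not tested, which leaves 9 tested members. Its paralog ATP6V0D1 made up at least 99.77% of the summed FPKM of the d subunit genes in every library.

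**Figure D1:**
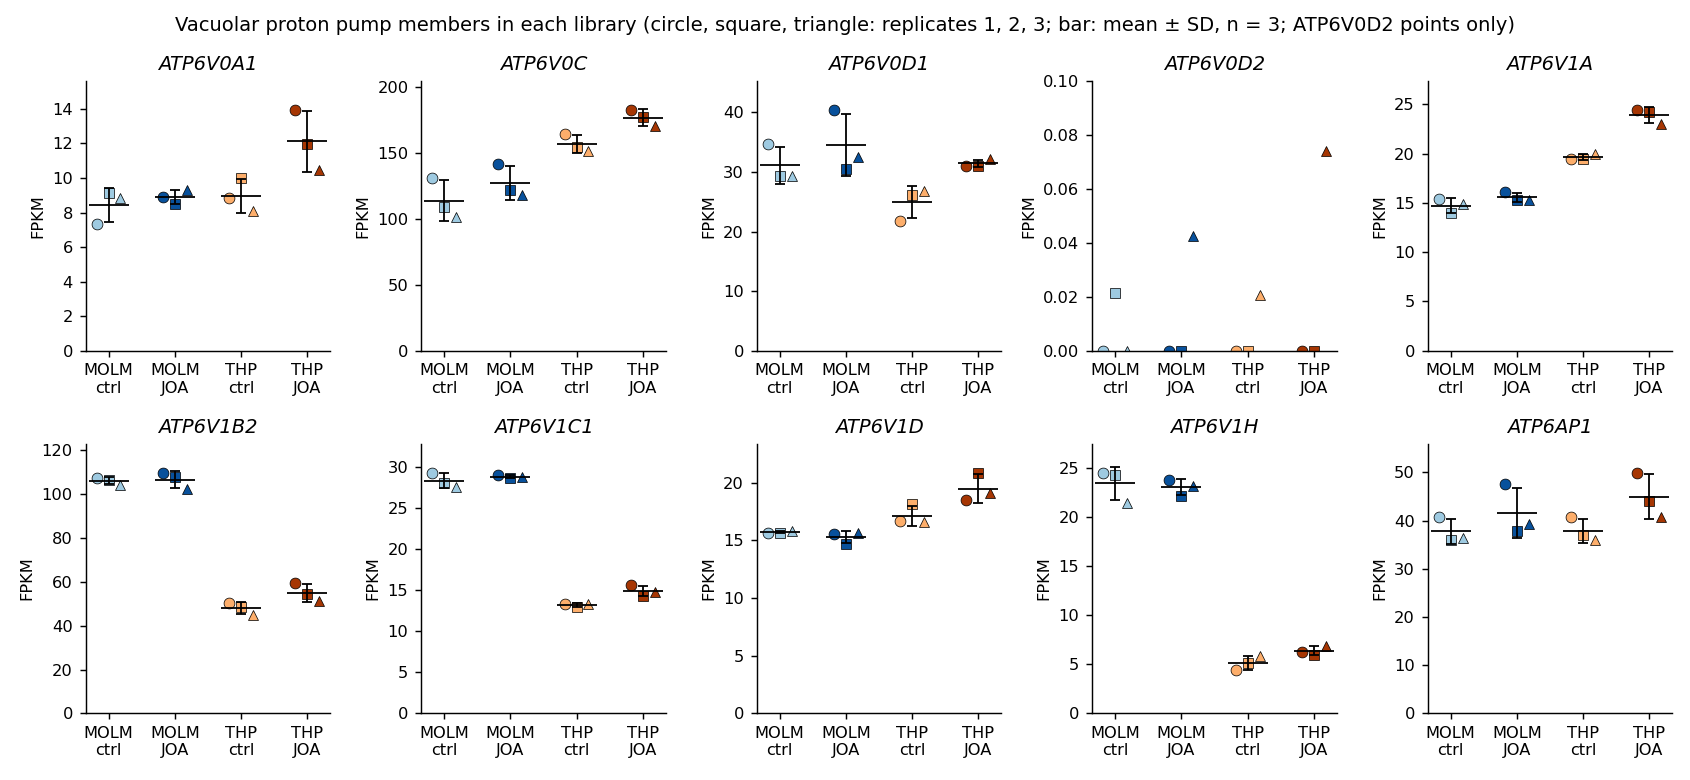
FPKM of the 10 members (vertical axis, linear from 0) in each of the 12 libraries, by line and treatment. Points are libraries and bars the mean ± SD (n = 3), with points alone for ATP6V0D2. ATP6V1B2, ATP6V1C1 and ATP6V1H sat lower in every THP-1 library than in every MOLM-13 library, and ATP6V0D2 reached at most 0.0741 FPKM.

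The untreated lines differed most in ATP6V1B2, ATP6V1C1 and ATP6V1H, all lower in THP-1. This comparison was not the one in which the members were chosen. It shares the THP-1 control libraries with that one, where low control values were favoured, so it is not fully separate from the choice. The fit of the untreated lines used limma on log2(FPKM + 0.1) over 12635 genes. A gene was called where the p adjusted by Benjamini-Hochberg was below 0.05 and the log2 fold change reached 0.58 in either direction. ATP6V1H, a peripheral V1 subunit needed for activity of the assembled pump, was at 24.5, 24.3 and 21.5 FPKM in the MOLM-13 controls and at 4.42, 5.15 and 5.86 FPKM in the THP-1 controls. The groups were far apart, with a log2 fold change of -2.17 (SE 0.11, adjusted p = 7.25e-07). ATP6V1C1, the C subunit that clamps V1 onto V0, was at 29.4, 28.1 and 27.6 FPKM in MOLM-13 and at 13.3, 12.999 and 13.3 FPKM in THP-1, a log2 fold change of -1.10 (SE 0.06, adjusted p = 7.72e-07). ATP6V1B2 was at 108, 107 and 104 FPKM in MOLM-13 and at 50.4, 48.7 and 44.9 FPKM in THP-1, a log2 fold change of -1.15 (SE 0.06, adjusted p = 1.00e-06). No library of either line overlapped with the other for these 3 genes. Thus 3 of 9 tested members were called, against 5559 of 12635 genes (44%).

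A further 3 members passed the adjusted p but not the fold threshold, which made 6 of 9 under 0.05 against 71.2% of all genes. ATP6V0C was higher in THP-1 (131, 109 and 101 FPKM against 164, 154 and 151 FPKM), with a log2 fold change of 0.47 (SE 0.10, adjusted p = 0.00253). ATP6V1A, the catalytic A subunit, was higher in THP-1 (15.4, 13.9 and 14.9 FPKM against 19.4, 19.5 and 20.0 FPKM), with a log2 fold change of 0.41 (SE 0.06, adjusted p = 0.000377). ATP6V0D1, which links the rotor to the proteolipid ring, was lower in THP-1 (34.6, 29.4 and 29.2 FPKM against 21.8, 26.2 and 26.8 FPKM), with a log2 fold change of -0.32 (SE 0.10, adjusted p = 0.0196). This pass rested on single libraries, since the limma adjusted p of ATP6V0D1 was 0.0533 without MOLM-13 control replicate 1 and 0.0574 without THP-1 control replicate 1, which left 5 of 9 members under 0.05. ATP6V0A1 (0.09, SE 0.11), ATP6V1D (0.13, SE 0.06) and ATP6AP1 (0.005, SE 0.07) did not pass, with adjusted p-values of 0.488, 0.0901 and 0.956. Counting groups that did not overlap, 7 of 9 members separated the lines, against 74.8% of all genes.

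The 3 called members lie on chromosome 8 (hg38), at 20197367 to 20226819 (ATP6V1B2, plus strand), 53715557 to 53843558 (ATP6V1H, minus strand) and 103021063 to 103073051 (ATP6V1C1, plus strand), as does ATP6V0D2 at 85987323 to 86154228. Positions are those of GENCODE v29. Over the 401 genes tested on that chromosome the median log2 fold change between the untreated lines was -1.29, the lowest of 23 chromosomes, and 328 (81.8%) were called lower in THP-1 against 16.7% of the genes on the other chromosomes, where the median was 0.09. The next lowest median was -0.47, on chromosome X. Relative to the chromosome's median, ATP6V1B2 was higher by 0.14 and ATP6V1C1 by 0.19, and ATP6V1H was lower by 0.88, with 9.48% of the chromosome's genes below it. The other 6 tested members are ATP6V1A (chr3:113747019-113812056, plus strand), ATP6V1D (chr14:67294371-67360265, minus strand), ATP6V0C (chr16:2513870-2520218, plus strand), ATP6V0D1 (chr16:67438014-67481237, minus strand), ATP6V0A1 (chr17:42458844-42522611, plus strand) and ATP6AP1 (chrX:154428632-154436516, plus strand). They differed from the medians of their chromosomes by -0.34 (ATP6V0D1) to 0.47 (ATP6AP1) on the same log2 scale. The part of gene copy number in these differences was not tested.

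**Figure D2:**
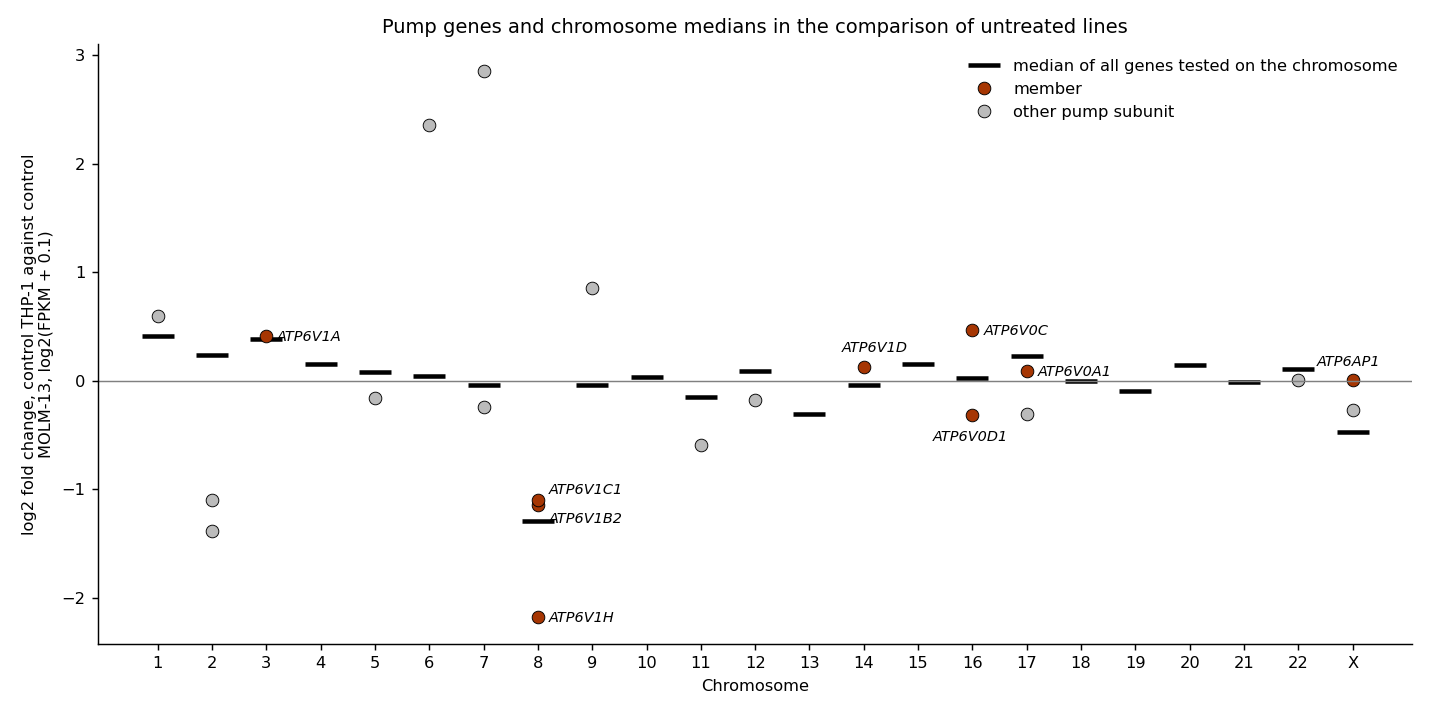
Log2 fold change of control THP-1 against control MOLM-13 (vertical axis, log2(FPKM + 0.1) scale) for pump genes placed on their chromosome (horizontal axis). Dark bars are medians of all genes tested on each chromosome, dark points members and grey points other pump subunits. ATP6V1B2 (-1.15) and ATP6V1C1 (-1.10) lie near the chromosome 8 median of -1.29, and ATP6V1H lies at -2.17.

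With JOA in THP-1, the treated libraries lay above the control libraries in 9 of 9 tested members, by log2 fold changes from 0.17 to 0.43 with a median of 0.24, while the median of all 12712 genes tested was 0.02. Such separation was found in 14.6% of all genes, and it is the pattern for which the members were chosen. Of the V0 subunits, ATP6V0A1 and ATP6V0D1 had the 2 largest values and ATP6V0C the smallest of the 9. ATP6V0A1, an isoform of the a subunit that forms the proton channel with the ring, was at 8.81, 10.01 and 8.06 FPKM in controls and at 13.9, 12.0 and 10.5 FPKM with JOA, a log2 fold change of 0.43 (SE 0.12). The highest control and the lowest treated library were close. ATP6V0D1 was at 21.8, 26.2 and 26.8 FPKM in controls and at 31.1, 31.0 and 32.2 FPKM with JOA, a log2 fold change of 0.34 (SE 0.08). All 3 treated libraries were nearly equal, and the controls were more spread. ATP6V0C was at 164, 154 and 151 FPKM in controls and at 182, 177 and 170.0 FPKM with JOA, a log2 fold change of 0.17 (SE 0.05).

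Of the V1 subunits, ATP6V1A was at 19.4, 19.5 and 20.0 FPKM in THP-1 controls and at 24.4, 24.3 and 22.99 FPKM with JOA, a log2 fold change of 0.28 (SE 0.05). It had the widest gap between groups for its spread and the lowest adjusted p of the members (0.0639). ATP6V1H was at 4.42, 5.15 and 5.86 FPKM in controls and at 6.28, 5.98 and 6.91 FPKM with JOA, a log2 fold change of 0.31 (SE 0.11), and stayed the lowest of the tested members. ATP6V1B2 was at 50.4, 48.7 and 44.9 FPKM in controls and at 59.4, 54.6 and 51.2 FPKM with JOA, a log2 fold change of 0.20 (SE 0.07). ATP6V1D, the rotor shaft of V1, was at 16.7, 18.2 and 16.6 FPKM in controls and at 18.5, 20.9 and 19.1 FPKM with JOA, a log2 fold change of 0.18 (SE 0.06). ATP6V1C1 was at 13.3, 12.999 and 13.3 FPKM in controls and at 15.6, 14.4 and 14.9 FPKM with JOA, a log2 fold change of 0.18 (SE 0.05). The levels of ATP6V1B2, ATP6V1C1 and ATP6V1H in treated THP-1 remained below every MOLM-13 library. ATP6AP1, the accessory protein also called Ac45, was at 40.7, 37.0 and 35.9 FPKM in controls and at 49.9, 44.1 and 40.7 FPKM with JOA, a log2 fold change of 0.24 (SE 0.08), and its lowest treated library was nearly level with its highest control.

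None of the members was called in THP-1. By limma, 0 of 9 passed both thresholds and 0 of 9 had an adjusted p under 0.05 (0.0639 to 0.216), although all 9 had an unadjusted p under 0.05, as did 2146 of 12712 genes. Over all genes 17 (0.134%) were called, and 24 (0.189%) were higher at an adjusted p under 0.05 whatever their fold. Same-numbered control and treated libraries deviated together, so the replicate number was also fitted as a block. With the block, 8 of 9 members had an adjusted p under 0.05 (0.0186 to 0.0473, with ATP6V1C1 at 0.0621), against 5.37% of all genes higher at that threshold. The fold threshold still left 0 of 9 called, against 1.27% of all genes. JOA exceeded the control in all 3 same-numbered pairs for 9 of 9 members, a pattern shown by 29.3% of all genes. The members' median log2 fold change was 0.29, 0.21 and 0.20 in pairs 1, 2 and 3. Because this contrast chose the members, nothing is read from these shares.

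**Figure D3:**
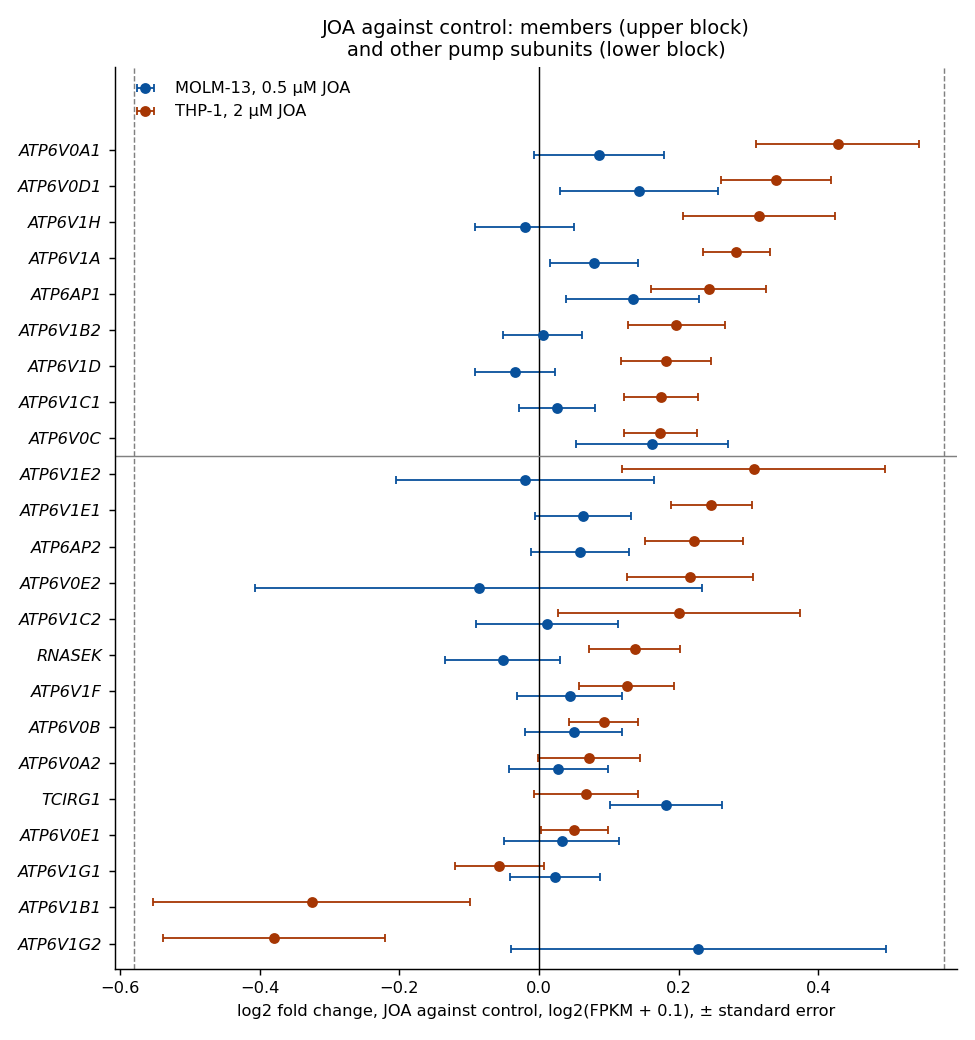
Log2 fold change of JOA against control (horizontal axis, log2(FPKM + 0.1) scale, ± standard error) for members above the solid line and other pump subunits below it, in MOLM-13 (blue, 0.5 µM) and THP-1 (brown, 2 µM). Dashed lines mark the fold threshold of 0.58 in each direction, which no pump gene reached. The THP-1 members range from 0.17 to 0.43 and the MOLM-13 members from -0.03 to 0.16.

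In MOLM-13 the treated and control libraries overlapped for all 9 tested members. The members were chosen on the other line, so a smaller value here than in THP-1 is no finding. The median log2 fold change was 0.08, against 0.005 over 11693 genes, and the values ran from -0.03 to 0.16. Of the V0 subunits, ATP6V0C was at 131, 109 and 101 FPKM in controls and at 141, 121 and 118 FPKM with JOA, a log2 fold change of 0.16 (SE 0.11). ATP6V0D1 was at 34.6, 29.4 and 29.2 FPKM in controls and at 40.4, 30.6 and 32.5 FPKM with JOA, a log2 fold change of 0.14 (SE 0.11). For both genes replicate 1 was the highest library of its group, and JOA exceeded the control in every same-numbered pair. ATP6V0A1 was at 7.31, 9.13 and 8.82 FPKM in controls and at 8.90, 8.52 and 9.30 FPKM with JOA, a log2 fold change of 0.09 (SE 0.09), with the groups intermixed.

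Among the V1 subunits in MOLM-13, ATP6V1A was at 15.4, 13.9 and 14.9 FPKM in controls and at 16.1, 15.3 and 15.3 FPKM with JOA, a log2 fold change of 0.08 (SE 0.06). ATP6V1B2 (108, 107 and 104 FPKM against 110, 108 and 102 FPKM), ATP6V1C1 (29.4, 28.1 and 27.6 FPKM against 29.03, 28.7 and 28.9 FPKM) and ATP6V1H (24.5, 24.3 and 21.5 FPKM against 23.8, 22.2 and 23.2 FPKM) had log2 fold changes between -0.02 and 0.03. ATP6V1D was at 15.7, 15.6 and 15.8 FPKM in controls and at 15.6, 14.7 and 15.7 FPKM with JOA, a log2 fold change of -0.03 (SE 0.06), and was lower with JOA in all 3 pairs. ATP6AP1 was at 40.7, 36.1 and 36.4 FPKM in controls and at 47.6, 37.9 and 39.3 FPKM with JOA, a log2 fold change of 0.13 (SE 0.10). No member was called (0 of 9, against 0% of all genes), and none had an unadjusted p under 0.05, against 481 genes in all. Treated values lay above all controls in 0 of 9 members (5.1% of all genes) and in all 3 pairs in 4 of 9 (18.5% of all genes), namely ATP6V0C, ATP6V0D1, ATP6V1A and ATP6AP1. With the replicate block the lowest adjusted p of a member was 0.35, 3 members had an unadjusted p under 0.05 (1295 genes in all), and 0% of all genes passed, with or without the fold threshold.

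The difference between the JOA effects in the lines was positive for 9 of 9 members, that is, the log2 fold change was larger in THP-1, by 0.01 (ATP6V0C) to 0.34 (ATP6V0A1) with a median of 0.20. This difference contains the THP-1 values on which the members were chosen, so its sign and its p-values are a description and serve as no test. The median over all 12626 genes was 0.02. By the interaction term of limma 0 of 9 members had an adjusted p under 0.05 (lowest 0.571, ATP6V1A), against 0% of all genes, and 4 had an unadjusted p under 0.05 (914 genes in all). With the block 0 of 9 passed (lowest 0.139, ATP6V1B2), against 0.0475% of all genes, and 7 had an unadjusted p under 0.05 (1883 genes in all). A difference between the lines was therefore not shown for any member, and line and dose change together in it.

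The remaining subunits of the pump were read in the same fits. Of 16 other V0, V1 and accessory genes, 14 were tested in THP-1, where 11 had a higher mean log2 value with JOA and 3 a lower one, with a median of 0.11. None was called (0 of 14). Over all genes tested, 7203 of 12712 were higher with JOA in THP-1 and 6124 of 11693 in MOLM-13. Groups separated upwards in 3, ATP6V0E2, ATP6V1E1 and ATP6AP2, as in 14.6% of all genes, and 2 of these passed an adjusted p of 0.05 with the block, against 5.37% of all genes higher at that threshold. They are named here after their values were seen. ATP6V1E1, a peripheral stalk subunit, was at 59.3, 55.8 and 62.5 FPKM in controls and at 70.0, 67.2 and 73.4 FPKM with JOA, a log2 fold change of 0.25 (SE 0.06, limma adjusted p = 0.0989, or 0.0156 with the block). The annotation lists 1 copy of it elsewhere in the genome. ATP6AP2, the prorenin receptor and an accessory protein of the pump, was at 50.2, 54.3 and 57.5 FPKM in controls and at 60.0, 60.9 and 68.1 FPKM with JOA, a log2 fold change of 0.22 (SE 0.07, limma adjusted p = 0.172, or 0.0233 with the block). Weakly expressed subunits had the widest values, with ATP6V1G2 at -0.38 (SE 0.16), ATP6V1B1 at -0.33 (SE 0.23) and ATP6V1E2 at 0.31 (SE 0.19). In MOLM-13, 13 of the 16 were tested, 10 were higher and none was called, with a median of 0.03. The values farthest from 0 there were those of ATP6V1G2 (0.23, SE 0.27), TCIRG1 (0.18, SE 0.08) and ATP6V0E2 (-0.09, SE 0.32).

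Between the untreated lines 7 of 13 other subunits were called, 4 higher and 3 lower in THP-1, against the 44% of all genes given above. ATP6V0E2, a small membrane subunit, averaged 0.409 FPKM in MOLM-13 and 3.41 FPKM in THP-1, a log2 fold change of 2.85 (SE 0.24, limma adjusted p = 1.44e-05). ATP6V1G2, a peripheral stalk isoform known from neurons, averaged 0.158 FPKM in MOLM-13 and 1.19 FPKM in THP-1 (2.35, SE 0.23). ATP6V1G1 (0.86) and ATP6V0B (0.59) were also higher. For ATP6V1G1 the annotation lists 5 copies, so its level is uncertain in the same way as that of ATP6V0C. ATP6V1C2 (-1.39), ATP6V1E2 (-1.10) and TCIRG1 (-0.59) were lower. ATP6V1C2 and ATP6V1E2, paralogs of ubiquitous subunits, averaged at most 2.90 FPKM in controls of either line. None of these 7 genes lies on the chromosome that carries ATP6V1B2, ATP6V1C1 and ATP6V1H.

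Where several genes encode a subunit, the isoforms were compared by their share of the summed FPKM. Of the subunit a genes, TCIRG1, the a3 isoform of lysosomes and of osteoclasts, led in every library. ATP6V0A1 held 21.4, 26.0 and 25.6% in MOLM-13 controls and 21.98, 23.3 and 25.4% with JOA. In THP-1 it held 32.0, 33.6 and 30.7% in controls and 39.8, 38.8 and 34.9% with JOA, all above the MOLM-13 libraries, and with no overlap between treated and control. TCIRG1 held 46.5, 45.6 and 45.3% in THP-1 controls and 41.5, 41.9 and 42.2% with JOA, also without overlap. Its own log2 fold change in THP-1 was 0.07 (SE 0.07, limma adjusted p = 0.70), as ATP6V0A2, the a2 isoform of the Golgi and endosomes, had 0.07 (SE 0.07, limma adjusted p = 0.671). ATP6V0A1 was chosen on its rise with JOA in THP-1, which enters the shares of all subunit a genes. The shifts in share with JOA in THP-1 are therefore a description and serve as no test. ATP6V0A4, the a4 isoform of kidney, was listed at 0 in every library. Of the B subunit, ATP6V1B2 made up at least 99.6% in every library, while ATP6V1B1, the kidney isoform, was listed at 0 in all MOLM-13 libraries. Of the C subunit, ATP6V1C1 held 90.0 to 91.8% in MOLM-13 and 91.1 to 93.7% in THP-1.

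**Figure D4:**
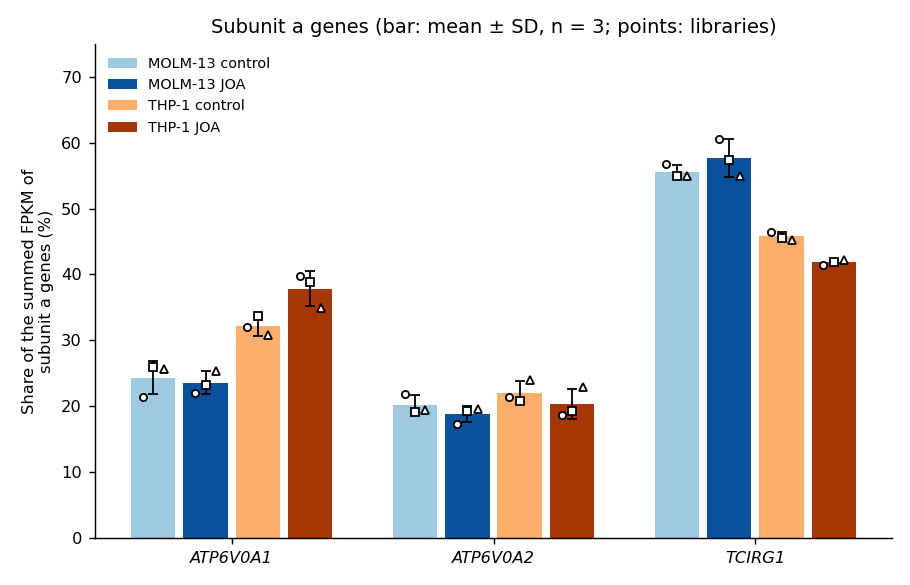
Share of the summed FPKM of the subunit a genes (vertical axis, percent, from 0) held by ATP6V0A1, ATP6V0A2 and TCIRG1 in each group. Bars are means ± SD (n = 3) and white points libraries, and ATP6V0A4 is left out because it was listed at 0. In THP-1 ATP6V0A1 went from 32.1% in controls to 37.8% with JOA and TCIRG1 from 45.8% to 41.9%. ATP6V0A1 was chosen on its THP-1 values, so these shifts serve as no test.

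None of the genes that assemble the pump or work beside it on lysosomes was called in either line, with or without the block. In THP-1 the medians of their lists ran from 0.06 to 0.19, against 0.02 over all genes. The members' median of 0.24 comes from the comparison that chose them, so nothing is read from its distance to these lists. The counts of higher genes below stand beside 7203 of 12712 genes in THP-1 and 6124 of 11693 in MOLM-13. Of 11 tested assembly factors, rabconnectin and TLDc proteins, 9 were higher with JOA in THP-1 (median 0.06), led by DMXL2 (0.28, SE 0.09), a rabconnectin that promotes V1 and V0 assembly, NCOA7 (0.27, SE 0.09), a TLDc protein, and CCDC115 (0.19, SE 0.06), an assembly factor of the V0 part. In MOLM-13, 8 of 11 were higher (median 0.09), led by ROGDI (0.39, SE 0.14), a partner of DMXL2, then DMXL2 itself (0.23, SE 0.10) and TMEM9 (0.12, SE 0.08). Of the 13 genes of Ragulator, the Rag GTPases and folliculin, which bind the pump and recruit mTORC1, 10 were higher in THP-1 with a median of 0.19 and 11 in MOLM-13 with a median of 0.04. RRAGA, a Rag GTPase, was at 17.5, 17.9 and 20.0 FPKM in THP-1 controls and at 23.1, 22.4 and 23.9 FPKM with JOA, a log2 fold change of 0.33 (SE 0.06, limma adjusted p = 0.0755, or 0.0124 with the block). FNIP2, a folliculin partner, had 0.40 (SE 0.10) and RRAGB 0.29 (SE 0.19) in THP-1. In MOLM-13 the values farthest from 0 were RRAGD (0.22, SE 0.12), SLC38A9, an amino acid sensor (0.12, SE 0.13), and RRAGA (0.09, SE 0.08). With the block 3 of the 13 passed an adjusted p of 0.05 in THP-1, RRAGA, RRAGC (0.28, SE 0.07) and LAMTOR1 (0.21, SE 0.05), against 5.37% of all genes higher. The last 2 are named after their values were seen.

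Of the 4 transcription factor genes of the TFEB family, TFE3 had 0.35 (SE 0.09) in THP-1 and 0.30 (SE 0.10) in MOLM-13. Its limma adjusted p was 0.121 in THP-1 (0.0203 with the block) and 0.9997 in MOLM-13 (0.244 with the block). Its treated values lay above all controls in both lines, a pattern shown by 14.6% of all genes in THP-1 and 5.1% in MOLM-13. TFEC had 0.36 (SE 0.08) in MOLM-13 and 0.19 (SE 0.09) in THP-1, TFEB had 0.16 (SE 0.11) and 0.06 (SE 0.22), and MITF had 0.02 (SE 0.16) and -0.15 (SE 0.18). The treated values of TFEC also lay above all controls in MOLM-13 (limma adjusted p = 0.9997, or 0.244 with the block), but overlapped them in THP-1. Of 9 lysosomal and endosomal channels and exchangers, 7 were higher in THP-1 (median 0.17) and 8 in MOLM-13 (median 0.06). Over all genes, 7203 of 12712 and 6124 of 11693 were higher in these lines. MCOLN1, the calcium-releasing channel of the lysosome, was at 4.07, 3.77 and 3.89 FPKM in THP-1 controls and at 5.92, 5.44 and 5.36 FPKM with JOA. Its log2 fold change was 0.50 (SE 0.07, limma adjusted p = 0.0466, or 0.0086 with the block), the only value in these lists to pass an adjusted p of 0.05 without the block, and it missed the fold threshold. In MOLM-13 MCOLN1 had 0.02 (SE 0.09). The next in THP-1 were CLCN5 (0.30, SE 0.11), an endosomal chloride-proton exchanger, and OSTM1 (0.25, SE 0.06), the partner of the lysosomal exchanger CLCN7. OSTM1 was the other gene of this list to pass an adjusted p of 0.05 with the block (limma adjusted p = 0.0403). In MOLM-13 they were CLCN7 (0.14, SE 0.07), TMEM175, a lysosomal potassium and proton channel (0.13, SE 0.11), and CLCN5 (-0.10, SE 0.09).

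Markers of osteoclasts and fused macrophages, the setting in which ATP6V0D2 is known, were present in part. Of 8 such genes 3 averaged at least 1 FPKM in each MOLM-13 group and 1 in each THP-1 group, and their summed level ranged from 7.001 to 8.52 FPKM in THP-1 controls and from 6.44 to 7.496 FPKM with JOA, and from 13.3 to 26.7 FPKM in MOLM-13 controls and from 16.2 to 25.5 FPKM with JOA. In MOLM-13 controls OCSTAMP, a fusion protein of osteoclasts, averaged 12.3 ± 7.21 FPKM and NFATC1, their main transcription factor, 7.61 ± 0.359 FPKM (SD, n = 3). The other markers were lower there, with CTSK at 1.37 FPKM and MMP9 at 0.190 FPKM on average. DCSTAMP (0.0300 FPKM), ACP5 (0.0198 FPKM) and SIGLEC15 (0.0155 FPKM) were close to absent, and CALCR was listed at 0. None was called with JOA (0 of 5 tested in THP-1, 0 of 4 in MOLM-13). In THP-1 the values farthest from 0 were OCSTAMP (0.83, SE 0.35), CTSK (-0.29, SE 0.18) and MMP9 (-0.25, SE 0.35), and in MOLM-13 they were the same genes with 0.15 (SE 0.53), 0.11 (SE 0.18) and -0.09 (SE 0.31). OCSTAMP was weakly expressed in THP-1, at 0.232 FPKM in controls and 0.449 FPKM with JOA on average, and these groups overlapped. Of the monocytic markers 4 were higher and 6 lower with JOA in THP-1. MPO, the granule enzyme myeloperoxidase, had a log2 fold change of -0.64 and was called with the block only. Its limma adjusted p was 0.0066 with the block and 0.399 without it, and 1.27% of all genes were called with the block. With the block CD33 was higher (0.29, limma adjusted p = 0.0342) and CD4 lower (-0.23, limma adjusted p = 0.0340), both short of the fold threshold. The part of such marker changes in the pump values was not tested.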

How the data were processed

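Messenger RNA libraries from a stranded TruSeq kit were sequenced as paired-end reads on a HiSeq X10. The authors deposited 1 table of FPKM values for 20030 gene symbols in 12 libraries, and the submitters' processing notes name Trimmomatic, HISAT2, Cufflinks, HTSeq and hg38, with versions not given in the sources used here. FPKM divides by gene length and library size and holds no counts, so depth in reads is unknown. Of the names, 27 had turned into dates and 3488 rows were 0 throughout.

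Values were analysed as log2(FPKM + 0.1), for genes with a mean of at least 0.1 FPKM in the libraries compared, with limma 3.58.1 (lmFit, eBayes with a trend) in R 4.3.3. Fold changes on this scale are understated for low genes. A gene was called where its Benjamini-Hochberg adjusted p, taken over all genes tested, was below 0.05 and its log2 fold change reached 0.58 in either direction (for the interaction, by the p alone). Groups followed the labels. In the JOA comparisons same-numbered libraries deviated together, with correlations of 0.407 to 0.58 in MOLM-13 and 0.297 to 0.541 in THP-1, against -0.439 to 0.0676 for other pairs, so the replicate block is given there. The labels do not say what the numbers share. An exact two-sided permutation test of 3 libraries against 3 cannot go below 0.1 and was not used.

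The members and gene lists were chosen with earlier results of these data known. Named from the lists were genes called with JOA, the 3 per list and line with the largest absolute log2 fold change, and paralogs of members. The code was tested on simulated data. Alternatives were another pseudocount, filter, scaling, trend, block, joint fit, fold threshold and leaving out each library.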

Additional observations from a re-analysis of the deposited data

Results flagged for a closer look

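ATP6V1D differed in sign between the lines, being lower with JOA in all 3 same-numbered pairs of MOLM-13 and higher in all 3 pairs of THP-1. The difference between the log2 fold changes was 0.22 (THP-1 minus MOLM-13, limma interaction adjusted p = 0.608, and 0.144 with the replicate block), so it was not past the threshold. The THP-1 direction was fixed by the choice of members, and the MOLM-13 value of -0.03 (SE 0.06) lay within its error of 0.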

How the results depend on the processing

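For the tested members, the direction and the call held in 135 of 135 values for JOA in THP-1, 126 of 135 in MOLM-13, 131 of 135 between untreated lines and 174 of 180 for the interaction. The exceptions were reversals of values near 0. For JOA in THP-1 the direction was largely set by the choice of members, so that count is a description. In the JOA fits every member fell short of the fold threshold, which left the call little room to change. By adjusted p alone the members did move. Those under 0.05 by limma for JOA in THP-1 numbered 0 in the main fit, 8 with the replicate block and 1 in the joint fit of all 12 libraries. With libraries left out in turn, the log2 fold changes in MOLM-13 ran from -0.0114 (without control replicate 1) to 0.147 for ATP6V0A1, from -0.0162 to 0.0350 for ATP6V1B2 and from -0.0819 to 0.0137 for ATP6V1H, those between lines from -0.0075 to 0.163 for ATP6V0A1 and from -0.0480 to 0.0605 for ATP6AP1, and the interaction of ATP6V0C from -0.0948 to 0.0930. ATP6V1B2 in MOLM-13 was also -2.35e-05 after median-ratio scaling and -0.0064 as TPM, and the interaction of ATP6V0C was -0.0177 after median-ratio scaling. Over all genes, JOA in THP-1 gave 17 calls, but 8 with a pseudocount of 1, 0 with any value above 0 kept, 1 without the trend, 161 with the replicate block, 56 in a joint fit of all 12 libraries, 38 with no fold threshold, and 0 to 1 with a library left out (1 without control replicate 1). JOA in MOLM-13 gave 0 calls, but 1 with any value above 0 kept and 1 in the joint fit. The interaction gave 0, but 1 with a pseudocount of 1, 3 with any value above 0 kept, 1 after median-ratio scaling, 1 as TPM and 6 with the replicate block. Between untreated lines 9000 genes and 6 members passed with no fold threshold. The cause of these shifts in counts was not tested. Members whose groups separated in MOLM-13 numbered 0, but 1 after median-ratio scaling and 0 to 5 with a library left out (5 without control replicate 1). The share of all genes that separated was not taken in these settings, and groups separate more easily with fewer libraries. Nothing is therefore read from these counts. The members' median log2 fold change in MOLM-13 ranged from 0.0241 (without JOA replicate 1) to 0.0904 (without JOA replicate 2). As TPM, the median of all genes between lines was 0.17 in place of 0.06. Under both thresholds the block changed no call of a member. Between untreated lines the numbers shared by libraries showed correlations of 0.0757 to 0.18, so no pairing was assumed there and the block moved the count from 5559 to 5593.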
